A study of Mus musculus with 2 samples.

Results

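The oligodendrocytes described here are nuclei from the hippocampus of tau transgenic mice in which *Anln*, *Hapln2*, *Piezo2* and *Enpp6* outweighed *Il33* and *Opalin*. They comprised 1404 of the 5059 oligodendrocyte nuclei and of the 20594 nuclei of all kinds that passed the filters, with 752 nuclei from the PS19 library and 652 nuclei from the PZKO library. Single-nucleus RNA sequencing counted unique molecular identifiers (UMIs) per gene in 1 library of each genotype. Both genotypes carry the PS19 transgene, which expresses human tau with the P301S mutation from a *Prnp* promoter. PS19 mice have intact *Zbp1* (Zbp1-WT), and PZKO mice are PS19 littermates that lack it (Zbp1-KO). Each library pooled the hippocampi of 5 males aged 9 months by its label, and the study's statistical methods also describe such pools. Its sequencing methods instead describe animals as processed separately, and the counts carry no mark of the animal. A difference between genotypes therefore cannot be told apart from a difference between the libraries or pools, and there is no replicate check. Intervals given below are 95% intervals, exact except for differences between shares (normal approximation), and cover counting error only.

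Oligodendrocytes wrap axons in myelin, and they do so in steps. Precursors first become newly formed, premyelinating cells, which then assemble and maintain the compact sheath together with the specialised contacts at the node of Ranvier and the paranode. Mature oligodendrocytes are themselves diverse, and several transcriptional states that share the myelin genes but differ in other genes are known in the mouse brain.

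An oligodendrocyte nucleus had at least 20 UMIs per 10000 from *St18*, *Prr5l*, *Mog* and *Mag* together, with under 5 from the microglial genes *Inpp5d*, *Csf1r* and *Dock8* and under 15 from the astrocytic genes *Gpc5* and *Rfx4*. A nucleus belonged to the Anln group when it had at least 2 UMIs of *Anln*, *Hapln2*, *Piezo2* and *Enpp6* and when this sum exceeded that of *Il33* and *Opalin*. Exchanging the sums gave the Il33 group (1587 PS19 and 1439 PZKO nuclei), which serves as the comparison, and 351 PS19 and 278 PZKO nuclei fell in neither group. The summed UMIs of the Anln group came to 3392812 in PS19 and 3687872 in PZKO. The PZKO nuclei were deeper, with a median of 4887 UMIs and 2128 genes per nucleus against 3857 UMIs and 1827.5 genes in PS19, a ratio of 1.27. The libraries shared 47 barcodes, and none of these (0) was a nucleus of the Anln group.

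The promoters of *Anln* and *Hapln2*, the most abundant genes of their sum, and of *Opalin*, a gene of the opposing sum, are shown because these genes define the groups. Each window runs from 250 bases before to 50 bases after the RefSeq start of the gene on GRCm38.p6, the assembly on which mm10 is based, and is written 5′ to 3′ on the minus strand, where all of them are transcribed. The windows lie at chr9:22389157-22389456 for *Anln*, chr3:88027462-88027761 for *Hapln2* and chr19:41077064-41077363 for *Opalin*. Capitals mark matches on either strand to ACAANG, a motif of SOX factors, and CTGGNAC, a motif of MYRF, the factor that drives myelin genes. On the other strand CTGGNAC reads GTNCCAG, and the motifs do not overlap in these windows.
Anln: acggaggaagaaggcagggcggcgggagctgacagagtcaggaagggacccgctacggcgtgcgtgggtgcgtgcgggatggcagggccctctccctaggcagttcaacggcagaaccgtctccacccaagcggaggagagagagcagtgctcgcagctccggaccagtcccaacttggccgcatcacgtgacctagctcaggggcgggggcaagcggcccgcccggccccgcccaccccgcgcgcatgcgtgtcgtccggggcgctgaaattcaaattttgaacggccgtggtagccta
Hapln2: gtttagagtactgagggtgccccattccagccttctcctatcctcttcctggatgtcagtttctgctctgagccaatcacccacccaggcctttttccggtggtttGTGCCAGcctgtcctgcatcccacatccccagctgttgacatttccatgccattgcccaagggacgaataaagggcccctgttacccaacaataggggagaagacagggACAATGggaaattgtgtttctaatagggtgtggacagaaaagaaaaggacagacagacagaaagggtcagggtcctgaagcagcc
Opalin: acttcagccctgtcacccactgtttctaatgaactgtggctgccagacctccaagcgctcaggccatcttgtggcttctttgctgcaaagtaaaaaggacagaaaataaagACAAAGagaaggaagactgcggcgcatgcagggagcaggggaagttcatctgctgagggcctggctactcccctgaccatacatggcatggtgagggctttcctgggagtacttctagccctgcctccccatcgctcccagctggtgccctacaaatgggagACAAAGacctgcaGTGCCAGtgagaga
*Hapln2* held 1 match to ACAANG and 1 to CTGGNAC, *Opalin* held 2 and 1, and *Anln* held none (0). Over 32851 promoter windows of this length, 41.2% held ACAANG and 19.3% held CTGGNAC on either strand. These matches are a description of the letters and not of binding.

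Within the Anln group, *Anln* was the most abundant of the 4 genes of the sum. *Anln* (ENSMUSG00000036777, chromosome 9, 22332012 to 22389188, mm10, GENCODE M21) encodes anillin, a scaffold of actin and septin filaments, and reached a level of 826 (796 to 858) in CPM, counts scaled to 1000000 UMIs, in PS19 and 746 CPM (718 to 774) in PZKO. *Hapln2* (ENSMUSG00000004894, chromosome 3, 88021750 to 88027583), a link protein of the perinodal matrix, stood at 438 CPM and 404 CPM. *Piezo2* (ENSMUSG00000041482, chromosome 18, 63010213 to 63387183) encodes a mechanically gated cation channel. It had 238 CPM in PS19 and 178 CPM in PZKO. *Enpp6* (ENSMUSG00000038173, chromosome 8, 46986887 to 47096762), a choline-specific phosphodiesterase and a marker of newly formed oligodendrocytes, had 358 CPM and 355 CPM. In the Il33 group the levels in PS19 and PZKO were 180 and 198 CPM for *Anln*, 167 and 162 CPM for *Hapln2*, 38.8 and 40.1 CPM for *Piezo2*, and 33.6 and 28.5 CPM for *Enpp6*. The order reversed for the genes of the other sum. *Il33* (ENSMUSG00000024810, chromosome 19, 29925114 to 29960718), a nuclear cytokine of the interleukin 1 family, had 335 and 296 CPM in the Anln group against 1316 and 1061 CPM in the Il33 group. *Opalin* (ENSMUSG00000050121, chromosome 19, 41061710 to 41077113), a membrane protein of myelin loops, had 145 and 165 CPM against 532 and 508 CPM. These genes chose the nuclei, so the contrast is a description of the choice.

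**Figure D1:**
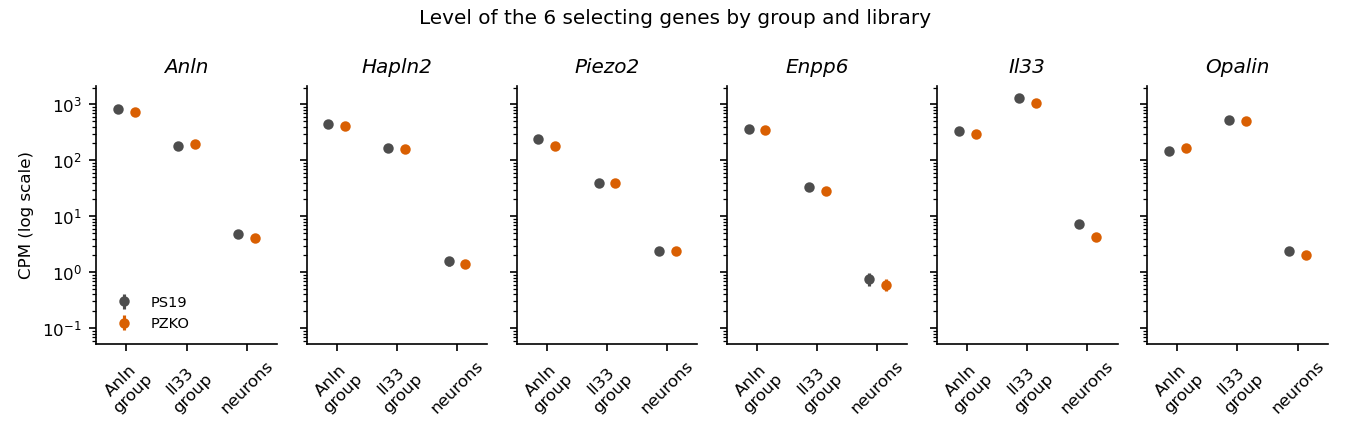
Level in CPM on a log scale of the 4 genes of the Anln sum and the 2 genes of the Il33 sum, in the Anln group, the Il33 group and neurons of the PS19 (grey) and PZKO (orange) libraries, with exact 95% intervals that are mostly smaller than the points. *Anln* stood at 826 CPM in PS19 and 746 CPM in PZKO in the Anln group, and at 4.75 and 4.09 CPM in neurons.

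Most members carried several of the genes that chose them. *Anln* and *Hapln2* were detected together in 553 PS19 nuclei (73.5%) and 475 PZKO nuclei (72.9%). All 4 genes were detected in 145 PS19 and 122 PZKO nuclei, while 72 and 80 nuclei carried a single one of them. The sum had a median of 7 UMIs in PS19 and 8 UMIs in PZKO, with the 10th percentile at 3 in both and the highest nucleus at 38 and 61 UMIs. Just inside the threshold lay 63 PS19 and 55 PZKO nuclei with a sum of exactly 2 UMIs, and 122 and 117 nuclei whose sum exceeded that of *Il33* and *Opalin* by 1. Just outside lay 121 and 103 nuclei with equal sums of at least 2, and 27 and 22 nuclei with a sum of 1 and no *Il33* or *Opalin*. The groups therefore border on each other in many nuclei, and 225 PS19 (29.9%) and 159 PZKO members (24.4%) had no UMI of *Il33* or *Opalin* at all.

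The shares of nuclei in which a gene was detected were set beside those in neurons after every nucleus had been thinned to 2000 UMIs and the rule applied again. *Anln* was then detected in 84.3% of the PS19 members and 85.8% of the PZKO members (90.8% and 88.5% before thinning), against 0.915% and 0.494% of neurons. *Piezo2* was detected in 29.8% and 21.8% of members (36.3% and 29.9% before thinning), against 0.286% and 0.390% of neurons. Neurons had a median of 18503 UMIs in PS19 and 27703 UMIs in PZKO before thinning. Members had to carry these genes, so their excess over neurons follows from the rule. *Piezo2* was the least widely detected of the 4.

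The genes of the oligodendrocyte gate were present by the choice of nuclei. *St18*, a zinc finger transcription factor of the lineage, had 3766 CPM in PS19 and 4048 CPM in PZKO, and was detected in 752 of 752 and 650 of 652 nuclei. The myelin glycoprotein gene *Mog* had 845 and 787 CPM. *Mbp*, myelin basic protein, which the rule did not use, was also high, at 5006 and 5236 CPM. Between the Anln group and the Il33 group *St18* and *Mog* were alike (log2 ratios of 0.04 and 0.03 in PS19, −0.03 and 0.03 in PZKO), whereas *Anln*, *Hapln2* and *Piezo2* differ by the rule. Markers of other classes were also found, and all 10 on each of these lists were detected. Their summed levels in PS19 and PZKO were 192 and 104 CPM for microglia (*C1qa* the highest in PS19), 972 and 746 CPM for astrocytes (*Slc1a2*), 1820 and 1451 CPM for excitatory neurons (*Syt1*) and 1116 and 1239 CPM for inhibitory neurons, most of it *Erbb4*, which oligodendrocytes also express. Markers of leptomeningeal fibroblasts summed to 610 and 453 CPM, most of it *Ptgds*, which oligodendrocytes also express, with *Lum* and *Bnc2* at 0 in PS19. Putative doublets made up 41 of the PS19 members (5.45%) and 29 of the PZKO members (4.45%). They are the nuclei with the highest doublet scores (Scrublet), up to a number set beforehand from the count of nuclei. This number was 876 in PS19 and 821 in PZKO over all nuclei that passed the filters.

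A small fraction of the members was led by *Enpp6*. In 30 PS19 nuclei (3.99%, 2.71% to 5.65%) and 33 PZKO nuclei (5.06%, 3.51% to 7.03%) the UMIs of *Enpp6* alone exceeded those of *Anln*, *Hapln2* and *Piezo2* together. These nuclei, called Enpp6-led here and singled out after their values had been seen, had high pooled levels of some genes of newly formed oligodendrocytes. *Tnr*, which encodes the matrix protein tenascin-R, had 5772 CPM in PS19 and 7640 CPM in PZKO in Enpp6-led members, against 89.6 and 89.7 CPM in the remaining, Anln-led members. *Tnr* is not particular to newly formed cells. It was also the highest precursor marker in the members, and PS19 neurons had 489 CPM of it. *Tnr* was detected in 17 of the 30 PS19 and 16 of the 33 PZKO Enpp6-led nuclei, so a subset of them carried the pooled level. The Anln-led members include 30 PS19 and 17 PZKO nuclei in which *Enpp6* equalled *Anln*, *Hapln2* and *Piezo2* together. The long noncoding RNA *9630013A20Rik* had 3194 and 3483 CPM against 4.76 and 59.3 CPM, and was detected in 13 and 17 of the Enpp6-led nuclei. *Bcas1*, an early marker of myelinating cells, was high in both kinds, with 2859 and 4326 CPM against 617 and 707 CPM.

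The receptor *Gpr17*, which restrains differentiation, had 200 and 221 CPM in Enpp6-led members and 5.72 and 2.68 CPM in Anln-led members. *Bmp4*, a secreted ligand, had 93.9 and 224 CPM against 2.22 and 1.19 CPM. The inositol trisphosphate receptor gene *Itpr2* had 1140 and 1575 CPM against 40.7 and 40.5 CPM. The transcription factors *Tcf7l2* (1822 and 1723 CPM against 55.3 and 71.8 CPM) and *Sox6* (972 and 2023 CPM against 27.0 and 28.3 CPM) followed the same order, while *Prr5l* ran the other way with 735 and 704 CPM against 2560 and 2787 CPM. The Enpp6-led nuclei were deeper (median 5040 and 5746 UMIs) than Anln-led nuclei (3825.5 and 4800 UMIs). Putative doublets were unevenly spread among them, with 15 of 30 in PS19 (50%) and 2 of 33 in PZKO (6.06%), and without putative doublets the log2 ratio of all members over the Il33 group was 2.23 in PS19 and 4.996 in PZKO for *Tnr* (3.38 and 3.36 with them) and 1.78 and 4.14 for *Sox6* (2.66 and 3.10 with them). They held 83.4% of the *Tnr* UMIs of all PS19 members and 89.4% of those of all PZKO members.

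**Figure D2:**
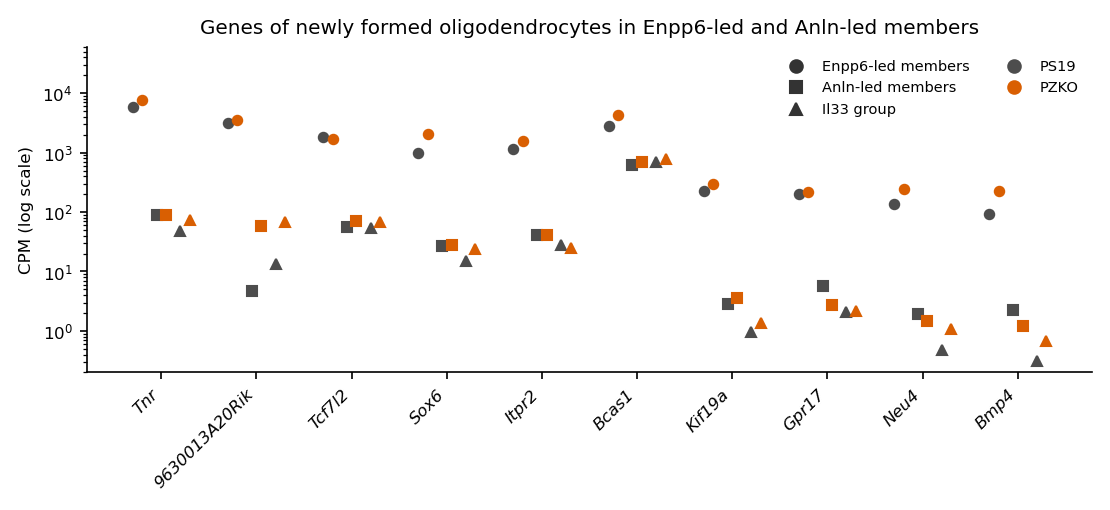
Level in CPM on a log scale of 10 genes of newly formed oligodendrocytes in Enpp6-led members (circles), Anln-led members (squares) and the Il33 group (triangles) of the PS19 (grey) and PZKO (orange) libraries. *Tnr* stood at 5772 and 7640 CPM in Enpp6-led members and at 89.7 CPM or less in Anln-led members and the Il33 group, while *Bcas1* was at 617 CPM or more in all groups shown.

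The Anln group was then set against the Il33 group in each library, for 11341 genes whose summed UMIs were 100 or more. The nuclei were chosen on these counts, so the ratios are a description, and the repeat in the other library is their only check. In both libraries 143 genes (1.26%) were at least 2-fold higher in the Anln group and 73 (0.644%) at least 2-fold lower, and the median log2 ratio of all genes was −0.01 in PS19 and 0.00 in PZKO. Of the 15 genes with the highest ratios outside the rule, 9 owed at least 81.9% of their UMIs to the Enpp6-led nuclei, among them *Tnr*, *Bmp4*, *Neu4*, *Kif19a*, *Gpr17* and *Sox6*. The other 6 had at most 18.1% there. With Anln-led members only, 86 genes (0.758%) were at least 2-fold higher and 76 (0.67%) at least 2-fold lower in both libraries, so the higher genes were fewer and the lower genes about as many.

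The gene that set the Anln group apart most by this ranking without the Enpp6-led nuclei was *Adgrg6* (chromosome 10, 14402583 to 14545659), an adhesion G protein-coupled receptor known for its role in peripheral myelination. It had 69 UMIs in the PS19 members against 4 in the larger PS19 Il33 group, and 58 against 1 in PZKO, log2 ratios of 5.01 (3.58 to 6.92) and 6.88 (4.34 to 12.21). The UMIs came from 44 PS19 and 34 PZKO nuclei, so the gene marked few of the members. The other 5 are noncoding in GENCODE. *A530053G22Rik* was the most abundant, with 200 against 16.0 CPM in PS19 and 201 against 12.7 CPM in PZKO (log2 ratios of 3.64 and 3.99), found in 112 and 82 nuclei. *6030407O03Rik* had log2 ratios of 4.63 and 4.46, and *A330072L02Rik* 4.13 and 2.64. *Gm32122* (3.90 and 5.02) and *Gm32005* (2.53 and 2.98) are neighbours on chromosome 8, at 96371727 to 96403862 on the minus strand and 96309519 to 96361523 on the plus strand.

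The ranking was repeated with Anln-led members after the values had been seen, and it added protein-coding genes. *Plin3*, a coat protein of lipid droplets, had 143 UMIs against 57 in PS19 and 167 against 78 in PZKO, log2 ratios over all members of 2.22 and 2.12. *Agmo*, which cleaves ether lipids, had 615 UMIs against 265 and 763 against 375, with ratios of 2.11 and 2.05, and was detected in 260 PS19 and 264 PZKO nuclei. *Shroom1*, a cytoskeletal gene, had ratios of 1.98 and 2.12. These genes were thus higher in the Anln group by about the same factor in each library.

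**Figure D3:**
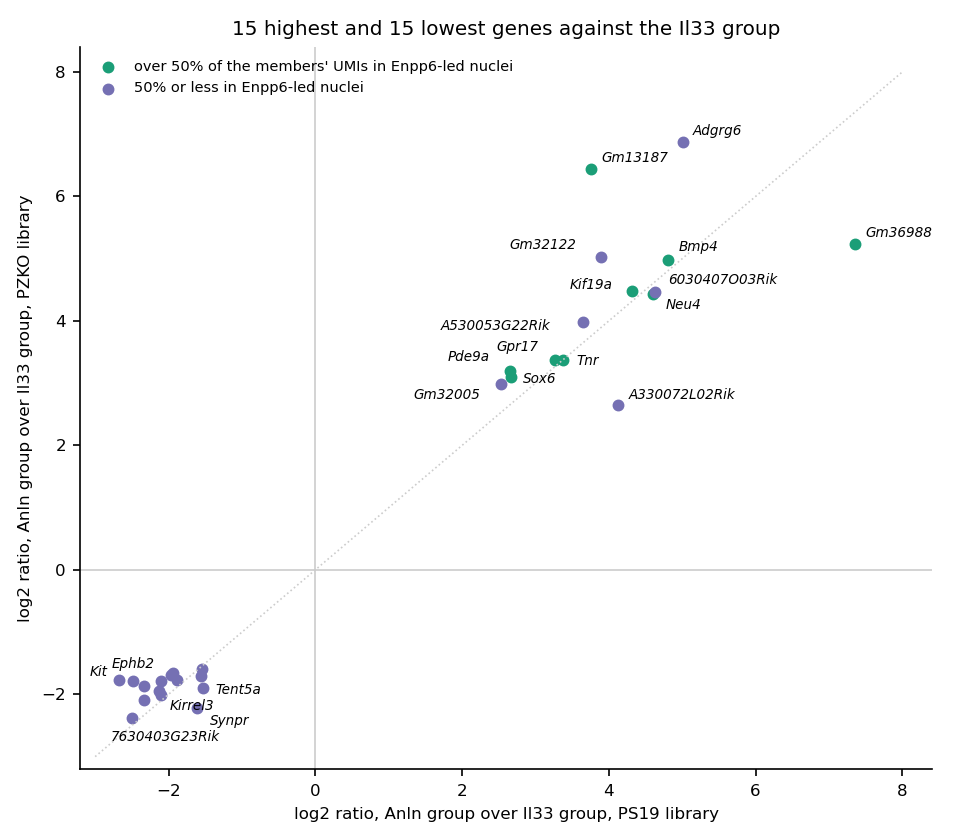
Log2 ratio of the Anln group over the Il33 group in PS19 (horizontal axis) and in PZKO (vertical axis) for the 15 highest and 15 lowest genes outside the rule. Green points are genes with over 50% of the members' UMIs in Enpp6-led nuclei, purple points the others, and the dotted line marks equal ratios. *Adgrg6* lies at 5.01 and 6.88, *Kirrel3* at −2.13 and −1.95.

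Among genes of mature oligodendrocytes, *Klk6*, which encodes a secreted serine protease, was higher in the Anln group (60.1 against 20.1 CPM in PS19, 17.1 against 6.42 CPM in PZKO, log2 ratios of 1.58 and 1.41). *S100b*, a calcium-binding protein, had ratios of 1.29 and 1.44, and *Apod*, a lipid-binding lipocalin, 0.97 and 0.85. *Trf*, the iron carrier transferrin, stood at 0.47 and 0.40. Of the 6 genes of a Klk6-type mature state that could be measured, 5 were higher in both libraries and 2 of them at least 2-fold, against 30.9% and 1.26% of all genes.

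Single receptors and enzymes were also higher, where 30.9% of all genes were higher in both libraries. Other receptors, *Erbb4*, *Kit* and *Ephb2* below, were lower, so these genes do not describe a class. The guidance receptor *Robo1* had log2 ratios of 1.24 and 0.66, *Cdh8*, a cadherin, 1.31 and 0.95, and the adhesion receptor *Adgrb3* 1.02 and 0.90. *Tmem63a*, a mechanosensitive ion channel, stood at 0.46 and 0.43. With *Wwtr1* it made 2 of the 6 genes past the minimum, of 10 on a list of such channels and their partners, that were higher in both libraries, near the 30.9% of all genes, and *Piezo1* had 3 and 9 UMIs in the members. *Pcyt1b*, of phosphatidylcholine synthesis, stood at 0.65 and 0.64, and *Elovl5*, a fatty acid elongase, at 0.67 and 0.57.

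Genes lower in the Anln group included surface receptors. *Kirrel3*, an adhesion molecule, was the most abundant, at 738 against 3231 CPM in PS19 and 974.5 against 3771 CPM in PZKO, log2 ratios of −2.13 and −1.95. The receptor tyrosine kinase *Kit* had 54 UMIs against 644 and 95 against 655 (−2.68 and −1.76), and *Ephb2*, a receptor of ephrins, had ratios of −2.49 and −1.78. *Synpr*, a vesicle membrane protein (−1.61 and −2.23), and the noncoding *Gm5087* (−2.34 and −2.10) lie side by side on chromosome 14, at 13284780 to 13616340 and 13157388 to 13284638. The noncoding *7630403G23Rik*, at 34042369 to 34059019 on chromosome 9 upstream of *Kirrel3* (34485894 to 35036716), had ratios of −2.50 and −2.38. Further down, *Vangl1* of planar cell polarity (−1.55 and −1.59) and the poly(A) polymerase gene *Tent5a* (−1.53 and −1.90) were lower as well, and the remaining 7 of the 15 lowest genes had between 2 and 26 UMIs per library in the members.

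The Il33 group stood higher for *Ptgds*, a prostaglandin D synthase (−1.27 and −1.08), the potassium channel subunit *Kcnab1* (−1.08 and −0.997), the neuregulin receptor *Erbb4* (−0.86 and −0.91) and the transcription factor *Olig2* (−0.95 and −0.68). Genes of disease-associated oligodendrocytes were lower in the Anln group in both libraries for 10 of the 13 that could be measured, against 31.9% of all genes, with medians of −0.60 in PS19 and −0.35 in PZKO, and *Cdkn1a*, a cell cycle inhibitor, was the lowest (−2.22 and −1.33). *Serpina3n* (−0.10 and −0.18) and *C4b* (0.09 and −0.16) of the same list differed little between the groups. Genes of the myelin sheath differed in both directions. Over 15 genes of compact myelin and the myelin sheath the median log2 ratio was −0.01 in PS19 and −0.02 in PZKO, with *Mobp* at −0.01 and −0.02. *Mbp* stood at 0.07 and 0.08, and its PZKO ratio was −0.08 with the ambient profile subtracted. Within the list, *Tspan2* (−0.70 and −0.65) and *Mal* (−0.62 and −0.44), both membrane proteins of the sheath, were lower in the Anln group.

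The share of oligodendrocyte nuclei that fell in the Anln group was compared between the genotypes. It was 27.96% (26.3% to 29.7%) in PS19 and 27.5% (25.7% to 29.4%) in PZKO, a difference of −0.43 percentage points (−2.91 to 2.04). When nuclei were thinned to 2000 UMIs, which left out 61 PS19 and 32 PZKO members as too shallow, and the rule was applied again, the shares were 26.5% and 24.9%, a difference of −1.63 points (−4.19 to 0.93). Both intervals include 0, and under a stricter filter on nuclei the difference was −2.91 points. Of all nuclei that passed the filters, the Anln group made up 7.19% in PS19 and 6.44% in PZKO, a difference of −0.75 points (−1.44 to −0.06).

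*Zbp1* itself was nearly undetected in these oligodendrocytes. It had 0 UMIs in the PS19 members, which at a floor of 3 counts allows up to 0.884 CPM, and 1 UMI in the PZKO members, against 42 UMIs in microglia of PS19 and 16 in microglia of PZKO. Over all nuclei that passed the filters it had 109 and 50 UMIs. The sequenced 3′ tags may lie outside the deleted part of the gene, so these counts do not check the label. Mouse *Mapt*, the gene of endogenous tau, had 1556 CPM in PS19 and 1687 CPM in PZKO (log2 ratio 0.12, and −0.01 when the ambient profile was subtracted), below the 1945 and 1951 CPM of the Il33 group. *Prnp* had 276 and 208 CPM, and the human tau transgene is not part of the mouse reference.

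Genotypes were compared in the Anln group for 8125 genes, those whose UMIs in PS19 and PZKO summed to 100 or more. Of these, 420 (5.17%) were at least 1.5-fold lower in PZKO and 209 (2.57%) at least 1.5-fold higher, while the median log2 ratio was −0.02. With DESeq2 size factors in place of the totals the split was 325 lower and 274 higher, and with an estimated ambient profile subtracted it was 434 and 821. This profile was the summed UMIs of all other nuclei that passed the filters, not of empty droplets. The ambient share was the median ratio of 40 marker genes of other classes to this profile. For the members it was 36.2% in PS19 and 25.3% in PZKO, and in the Il33 group it was 28.4% and 37.0%. The classes differed widely in PS19. Excitatory neuron markers summed to 1820 CPM in members against 11048 CPM in the other nuclei, and choroid plexus and ependyma markers to 718 against 495 CPM. The share is therefore a rough estimate. Of all genes tested, 52.5% were lower in PZKO. The intervals of 1180 genes (14.5%) lay below 0 and those of 1110 genes (13.7%) above 0.

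Genes of disease-associated oligodendrocytes were lower in PZKO. Of the 16 genes on this list 9 passed the minimum of 100 UMIs. Of these, 7 were lower and 6 at least 1.5-fold lower, against 52.5% and 5.17% of all genes. The median log2 ratio of the 9 genes was −0.78 (−1.01 for the same genes in the Il33 group and −0.73 in all other nuclei). *Serpina3n*, a secreted protease inhibitor, had 317 UMIs in PS19 and 108 in PZKO (93.4 and 29.3 CPM), a log2 ratio of −1.67 (−2.002 to −1.35). It was detected in 16.1% of thinned PS19 members and 5.72% of thinned PZKO members (26.6% and 13.3% before thinning), against 2.46% and 0.858% of neurons. *C4b*, a complement component, had 453 CPM in PS19 and 230 CPM in PZKO (−0.98, −1.10 to −0.86), and *Apoe*, the lipid carrier, had 735 and 388 CPM (−0.92, −1.02 to −0.83). The tetraspanin gene *Cd63* (−1.15), the lipid droplet gene *Plin4* (−0.78) and the class I gene *H2-D1* (−0.59) were lower as well. *Sgk1*, a kinase, was higher (0.35), and *H2-K1* was higher (0.65) with all nuclei but not without the nuclei that carried vascular genes (−0.11). The summed microglial markers also stood at 192 CPM in PS19 and 104 CPM in PZKO among the members, and summed astrocyte markers at 972 and 746 CPM. *Gfap*, an astrocyte filament gene named after its values were seen, had 130 and 52.1 CPM, and the part of RNA from microglia and astrocytes in these ratios was not tested. The median of the list was −0.94 with the ambient profile subtracted and −0.38 at a minimum of 20 UMIs, which admits more of the 16 genes.

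A pair of genes that were higher in the Anln group than in the Il33 group also separated the genotypes. *Klk6* had 204 UMIs in 116 PS19 members and 63 UMIs in 47 PZKO members, a log2 ratio of −1.82 (−2.25 to −1.40), and −1.65 in the Il33 group. Its share of thinned nuclei was 9.11% in PS19 and 4.24% in PZKO (15.4% and 7.21% before thinning), against 0.372% and 0.078% of neurons. *Apod* had 5708 UMIs (1682 CPM) in PS19 and 2857 UMIs (775 CPM) in PZKO, a log2 ratio of −1.12 (−1.18 to −1.05), which was −0.72 under a stricter filter on nuclei, and −0.99 in the Il33 group. Both genes were thus lower in PZKO in the Anln group and in the Il33 group alike, and the difference between the groups was not tested. *Klk6* was also lower in all other nuclei (−1.29). *Apod* was also lower in neurons (30.2 CPM in PS19 and 13.9 CPM in PZKO) and in microglia (151 and 72.1 CPM).

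**Figure D4:**
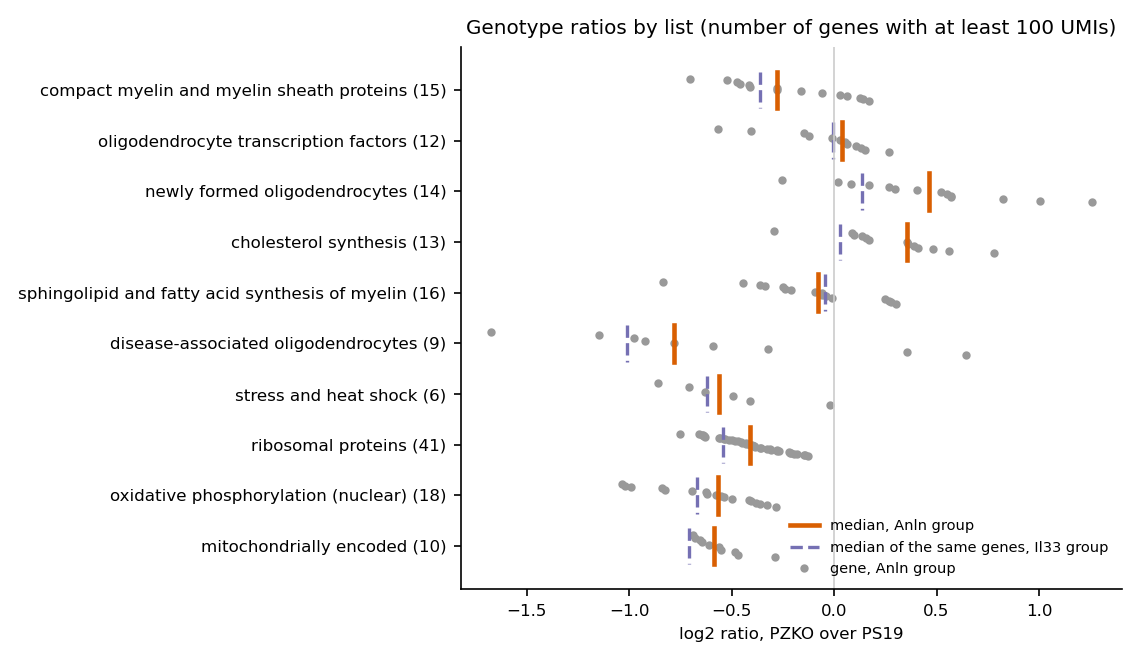
Log2 ratio of PZKO over PS19 in the Anln group for the genes of 10 lists (grey points, number of genes in brackets), with the median of each list in the Anln group (orange bar) and the median of the same genes in the Il33 group (dashed purple bar). The medians ran from −0.78 for disease-associated oligodendrocytes to 0.46 for newly formed oligodendrocytes.

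Myelin genes differed in both directions. Of the 15 genes of compact myelin and the sheath, 10 were lower in PZKO, against 52.5% of all genes, and 5 were higher. Intervals lay below 0 for 8 and above 0 for 2 of them (14.5% and 13.7% of all genes). The median was −0.28 (−0.36 in the Il33 group and −0.59 in all other nuclei). It was −0.12 under a stricter filter on nuclei and −0.43 with the ambient profile subtracted. *Cnp*, a phosphodiesterase of the sheath, had 731 UMIs in PS19 and 573 in PZKO (−0.47, and −0.27 after thinning), and the tight junction gene *Cldn11* (−0.41) was lower too, as was *Mag* of the inner myelin wrap (−0.28). *Mag* is a gene of the oligodendrocyte gate, so its ratio only describes nuclei that were chosen on it. *Mobp* was higher (0.17), and *Mbp* was nearly level (0.06, and −0.09 with the ambient profile subtracted). *Trf* was lower (−0.60), as were the ferritin chains *Fth1* (−0.50, and −0.30 under a stricter filter on nuclei) and *Ftl1* (−0.72), and *Ptgds* was lower (−0.70).

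Of 13 cholesterol synthesis genes that passed the minimum, 12 were higher in PZKO and 4 of them had intervals above 0, against 3858 higher and 1110 (13.7%) with intervals above 0 among the 8125 genes tested. The median was 0.35 in the Anln group, 0.03 in the Il33 group and 0.26 in all other nuclei. *Srebf2*, the transcription factor of the pathway, had 308 UMIs in PS19 and 444 in PZKO (0.41, 0.19 to 0.62), *Msmo1* 128 and 205 UMIs (0.56, 0.23 to 0.89, and 0.24 after thinning) and *Fdft1* 126 and 175 UMIs (0.35, 0.01 to 0.70). The exception was *Insig1*, which holds the pathway back (−0.29, −0.67 to 0.08). Sphingolipid and fatty acid genes of myelin had a median of −0.08 over 16 genes, choline phospholipid genes −0.03 over 12 and transcription factors of the lineage 0.04 over 12, within which *Olig1* was lower (−0.57, with 203 UMIs in PS19 and 149 in PZKO). Medians lay at 0.13 over 9 genes of the node and paranode, −0.16 over 9 septins and actin regulators, −0.22 over 8 potassium channels and gap junction genes, and 0.09 over 15 growth factor receptors and their partners.

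Genes of newly formed oligodendrocytes were higher in PZKO as a list, and less so in the Anln-led members alone. Of 14 genes 13 were higher, against 3858 of the 8125 genes tested, and 3 were at least 1.5-fold higher against a background of 2.57%. The list had a median of 0.46 (0.14 in the Il33 group, −0.01 in all other nuclei). This median was 0.058 after thinning to equal depth, 0.21 as a mean over nuclei and 1.61 without putative doublets. In Anln-led members alone the median of the same genes was 0.03, and 0.12 over those that still reached 100 UMIs there. *Tnr* had 500 CPM in PS19 and 767 CPM in PZKO over all members, a log2 ratio of 0.62, which was 0.00 in Anln-led members, 3.50 without putative doublets and −0.08 after thinning. *Sox6* (1.12) stood at 0.07 in Anln-led members. *Bcas1*, which is not confined to the Enpp6-led nuclei, had a ratio of 0.41 (0.33 to 0.48), 0.18 after thinning and 0.20 in Anln-led members. Precursor markers had a median of 0.62 over 7 genes and 0.00 in Anln-led members.

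Genes of protein synthesis and respiration were lower in PZKO throughout. All 41 of the 41 ribosomal protein genes measured were lower and 7 of them at least 1.5-fold, against 52.5% and 5.17% of all genes. Their median was −0.41 (−0.54 in the Il33 group, −0.53 in all other nuclei). The 18 nuclear genes of oxidative phosphorylation were all lower (median −0.56, 8 at least 1.5-fold against the same background), among them *Ndufa4* of the respiratory chain with 183 UMIs in PS19 and 100 in PZKO. The 10 mitochondrially encoded genes were lower as well (median −0.59, and −0.27 under a stricter filter on nuclei), and the median share of mitochondrial UMIs per member was 0.557% in PS19 and 0.459% in PZKO. In the Il33 group and in all other nuclei the medians were −0.67 and −0.55 for the nuclear genes and −0.71 and −0.78 for the mitochondrially encoded genes. Of the heat shock genes 6 passed the minimum. All 6 were lower, 3 of them at least 1.5-fold, against 52.5% and 5.17% of all genes, with a median of −0.56 (−0.62 in the Il33 group and −0.65 in all other nuclei), led by *Cryab*, a small chaperone (−0.86), *Hsp90aa1* (−0.71) and *Hspa8* (−0.63, and −0.36 after thinning). The actin-binding *Tmsb4x* was lower too (−0.93).

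Among the genes of the rule, *Piezo2* was lower in PZKO in the Anln group (−0.42, −0.57 to −0.26) and level in the Il33 group (0.05), a difference between the groups that was not tested. *Anln* (−0.15), *Hapln2* (−0.11) and *Il33* (−0.18) were slightly lower, *Enpp6* was level (−0.01, −0.12 to 0.10) and *Opalin* slightly higher (0.18). *St18* (0.10) and *Prr5l* (0.10) were slightly higher, but lower with the ambient profile subtracted (both −0.06), and *Prr5l* also without putative doublets (−0.01). Since nuclei were chosen on these genes, their ratios are a description. *Erbb4* (0.27), *Cdh20*, a cadherin (0.32), and *Sema6a*, a guidance ligand (0.53), were higher, *Kcnk2*, a mechanosensitive potassium channel, had 42 UMIs in PS19 and 78 in PZKO (0.77, and 0.28 after thinning), and the 18 genes of cell adhesion and guidance had a median of 0.13.

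Interferon-stimulated genes, a class to which *Zbp1* itself belongs, were mostly near the limit of detection. Of 24 genes 7 passed the minimum, with a median of 0.09. *Xaf1* had 189 UMIs in PS19 and 269 in PZKO (0.39, 0.12 to 0.67, and −0.0029 after thinning). *Ifitm3* had 67 UMIs in 56 PS19 nuclei and 106 UMIs in 24 PZKO nuclei, 79.2% of the latter in 3 nuclei, and its ratio of 0.54 was −1.69 without nuclei that carried vascular genes. Below the minimum, *Isg15* had 7 UMIs in PS19 and 38 in PZKO, 81.6% of them in 3 nuclei, and *Irf7* 4 and 21 UMIs. The necroptosis genes *Ripk3* and *Mlkl* had 0 and 15 UMIs in PS19 and 0 and 13 in PZKO.

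The genes with the most extreme ratios between the genotypes differed in how their UMIs were spread over nuclei. *Ttr* (chromosome 18, 20665280 to 20674321), which choroid plexus cells produce in bulk, was the lowest gene, with 2281 UMIs in 695 PS19 members and 253 UMIs in 193 PZKO members, a log2 ratio of −3.29 (−3.49 to −3.10), and it was −3.22 in the Il33 group. All 10 markers of choroid plexus and ependyma together had 718 CPM in PS19 and 89.8 CPM in PZKO, of which *Ttr* made up 672 and 68.6 CPM. With the ambient profile subtracted the ratio of *Ttr*, which is among the marker genes behind that estimate, was −3.48. *Klk6* and *Serpina3n*, described above, were also among the 10 lowest genes, and 3 nuclei held 14.7% and 8.52% of their PS19 UMIs. In the remaining 7 the UMIs were more concentrated. For *Inpp4b* (−2.94), *Glis3* (−2.34), *Sphkap* (−2.08), *Iqgap2* (−2.07), *Cntnap5b* (−1.86), *Tafa1* (−1.71) and *Kcnip4* (−1.40), 3 nuclei held between 29.2% and 59.2% of the PS19 UMIs. *Kcnip4* was detected in more nuclei in PZKO (207, 31.7%) than in PS19 (120, 16.0%), although its UMIs were fewer (958 against 2318). These shares are from before thinning, and the PZKO members were deeper (median of 4887 against 3857 UMIs). In the Il33 group the same 7 genes had ratios between −0.42 and 0.50. After thinning to equal depth these ratios were −0.37 for *Inpp4b*, −0.62 for *Glis3*, −0.12 for *Sphkap*, −1.11 for *Iqgap2*, 0.33 for *Cntnap5b*, 0.16 for *Tafa1* and 0.033 for *Kcnip4*, all nearer to 0. Without putative doublets *Inpp4b* was −1.67, *Glis3* −0.84 and *Sphkap* −0.68, and *Kcnip4* reversed to 0.77 and *Cntnap5b* to 0.20. Without nuclei that carried neuron genes *Sphkap* was −0.63, *Iqgap2* −0.96 and *Tafa1* 0.033. *Glis3* reversed to 0.43 when the oligodendrocyte genes had to reach 40 UMIs per 10000. Under a stricter filter on nuclei the ratios were −3.17 for *Inpp4b*, −3.39 for *Glis3*, −2.34 for *Sphkap*, −2.17 for *Iqgap2*, −2.003 for *Cntnap5b*, −1.70 for *Tafa1* and −1.61 for *Kcnip4*.

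The 10 highest genes were detected in between 10 and 31 PZKO nuclei each. *Rarb* had the highest ratio (3.55) and *Slco1a4* the lowest of them (1.98). For *Rarb*, *Adgrl4*, *Ly6a*, *Cped1*, *Cntn6*, *Flt1*, *Il1rapl2*, *Ly6c1*, *Akap12* and *Slco1a4*, 3 nuclei held between 46.4% and 91.1% of the PZKO UMIs. *Flt1*, *Adgrl4*, *Ly6a*, *Ly6c1* and *Slco1a4* are known from endothelial cells, whose markers, with those of pericytes, summed to 49.2 CPM in PS19 and 178 CPM in PZKO members, against 97.6 and 85.1 CPM in the Il33 group. Without the 11 PS19 and 16 PZKO nuclei that had at least 5 vascular UMIs per 10000, these 5 genes reversed, to −1.24 for *Flt1*, −0.11 for *Adgrl4*, −0.31 for *Ly6a* and *Ly6c1* and −1.84 for *Slco1a4*, and *Akap12* was 0.12. Vascular UMIs were those of the same endothelial and pericyte markers. *Flt1* and *Ly6c1* are among these markers, so their fall follows in part from which nuclei were left out. Without putative doublets *Cped1* was 0.20 and *Il1rapl2* 0.78, and *Il1rapl2* was 0.58 without nuclei that carried neuron genes. *Rarb* was 2.18 without the Enpp6-led nuclei, and *Cntn6* was 1.74 when the oligodendrocyte genes had to reach 40 UMIs per 10000.

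**Figure D5:**
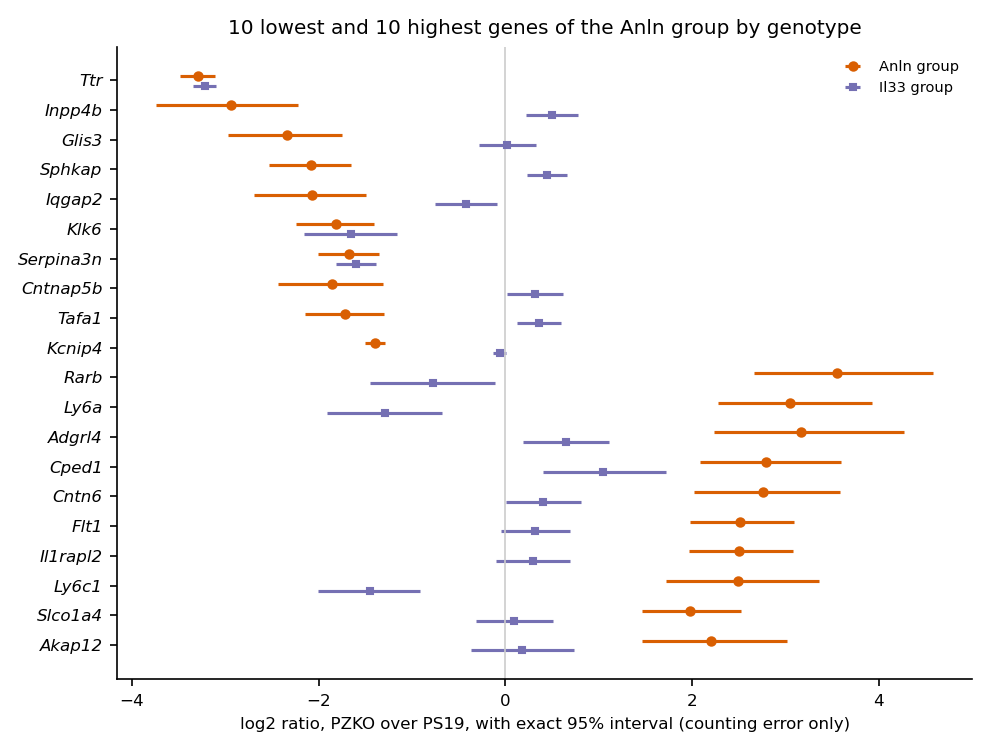
Log2 ratio of PZKO over PS19 with its exact 95% interval for the 10 lowest and 10 highest genes of the Anln group (orange circles) and for the same genes in the Il33 group (purple squares). *Ttr*, *Klk6* and *Serpina3n* lay at −3.29, −1.82 and −1.67 in the Anln group and at −3.22, −1.65 and −1.60 in the Il33 group, while the other genes lay between −1.45 and 1.05 in the Il33 group.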

How the data were processed

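Nuclei of 1 PS19 and 1 PZKO library were analysed. With Cell Ranger and the mm10 reference the authors obtained counts of UMIs (7.0.1 in their processing notes, 8.0.1 in the matrix headers) and deposited these counts without normalization; the ambient correction, filter and doublet removal of their methods are not part of the deposited counts. A barcode was kept from 600 UMIs and 300 genes upward if mitochondrial UMIs were 5% or less. For each group and library, UMIs were summed per gene and scaled to CPM. Log2 ratios have conditional binomial (Clopper-Pearson) intervals, levels have exact Poisson intervals and shares Clopper-Pearson intervals (scipy 1.17.1). With 1 library per genotype no test was made and nuclei were not treated as replicates. Neurons had at least 20 UMIs per 10000 of *Snap25*, *Syt1* and *Rbfox3* and under 5 of the oligodendrocyte genes.

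Genes named are those of the rule, members of gene lists where the list is described, *Zbp1*, *Mapt* and *Prnp*, the 10 lowest and 10 highest genes by genotype, ordered by whichever interval bound lay closer to 0, and the 15 highest and 15 lowest by group, ranked by the smaller of the ratios in the 2 libraries. The nuclei and lists were chosen with earlier results of these data known. In simulated Poisson sums of the Anln group (8091 genes, 200 changed), intervals held the true ratio for 95.0% of genes. The simulation had no spread between nuclei, so it does not cover genes whose UMIs lay in few nuclei. Alternatives used Scrublet in scanpy 1.11.5, edgeR 4.0.16 and DESeq2 1.42.0. Gene positions came from GENCODE M21 (32235 of 32285 genes matched), promoters from RefSeq. Some members of the lists are not reported here by name.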

Additional observations from a re-analysis of the deposited data

Results flagged for a closer look

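For 7 of the 20 genes with the most extreme genotype ratios in the Anln group, the interval of the ratio lay on the other side of 0 in the Il33 group. *Inpp4b* had a log2 ratio of −2.94 in the Anln group and 0.50 in the Il33 group. *Sphkap* had −2.08 and 0.44, *Cntnap5b* −1.86 and 0.32, and *Tafa1* −1.71 and 0.36. In the other direction *Rarb* had 3.55 and −0.77, *Ly6a* 3.05 and −1.28, and *Ly6c1* 2.49 and −1.45. The difference between the groups was not tested for any of these genes. After thinning to equal depth *Inpp4b* was −0.37 and *Sphkap* −0.12 in the Anln group, and *Cntnap5b* (0.33) and *Tafa1* (0.16) changed sign, as did *Ly6a* and *Ly6c1* (both −0.31) without nuclei that carried vascular genes. *Ly6c1* is itself among the vascular genes that singled out these nuclei.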

How the results depend on the processing

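For the Anln group 13 alternatives were planned and 2, leaving out the Enpp6-led nuclei and leaving out nuclei with vascular genes, were added after the data had been seen. No paired analysis was possible because each genotype had 1 library. Of 972 genotype ratios of single genes under these settings, 26 were marked as reversed in sign. Of 1697 ratios against the Il33 group, 10 were so marked. A further 169 genotype ratios and 266 ratios against the Il33 group were marked as moved in size. Changes of sign among ratios not marked as reversed were not counted. Thinning to 2000 UMIs left 145 genes at least 1.5-fold lower and 73 higher in PZKO, and 61 genes at least 2-fold higher and 39 lower than in the Il33 group. A minimum of 20 UMIs gave 1393, 772, 296 and 178, and a subtracted ambient profile gave 821 genes higher in PZKO and 284 and 153 against the Il33 group. The 2-fold higher genes numbered 87 with *Enpp6* left out of the sum and 85 without Enpp6-led nuclei when the minimum of UMIs was applied again to the remaining nuclei (86 over the genes tested with all members). Fewer or more genes reach the minimum of UMIs under thinning and the lower minimum, and for the others the cause was not tested.

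The median of newly formed oligodendrocyte genes was 1.61 without putative doublets, 0.73 with an oligodendrocyte gate of 40, 0.058 thinned, 0.21 as a mean over nuclei and 0.12 without Enpp6-led nuclei. The compact myelin median was −0.12 under a stricter filter on nuclei, −0.39 without nuclei with neuron genes and −0.43 with the ambient profile subtracted. The disease-associated median was −0.38 at a minimum of 20 UMIs, and the mitochondrial median −0.27 under the stricter filter, −0.41 thinned and −0.39 as a mean over nuclei. The share of the Anln group in PS19 was 31.6% under the stricter filter, 22.8% with a sum of at least 4 UMIs, 24.9% with *Enpp6* left out and 31.0% without nuclei with neuron genes. In PZKO it was 22.5% with a sum of at least 4 UMIs, 24.6% with *Enpp6* left out, 29.98% without nuclei with neuron genes and 24.9% thinned, and the difference was −2.91 points under the stricter filter.

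The genotype ratios marked as reversed were these. Without putative doublets *Cntnap5b* was 0.20, *Kcnip4* 0.77 and *Prr5l* −0.0064. Without nuclei with neuron genes *Tafa1* was 0.033 and *Kcnip4* 0.73. With the gate of 40 *Glis3* was 0.43 and *Ifitm3* −0.063. Thinned, *Cntnap5b* was 0.33, *Tafa1* 0.16, *Kcnip4* 0.033, *Tnr* −0.084, *Xaf1* −0.0029 and *Ifitm3* −0.28. *Ifitm3* was also −0.17 under the stricter filter and −0.39 as a mean over nuclei. Without nuclei with vascular genes *Ly6a* was −0.31, *Adgrl4* −0.11, *Flt1* −1.24, *Ly6c1* −0.31, *Slco1a4* −1.84, *H2-K1* −0.11 and *Ifitm3* −1.69. Of these, *Flt1* and *Ly6c1* are among the genes that singled out the nuclei left out. With the ambient profile subtracted *St18* was −0.056, *Prr5l* −0.064, *Mbp* −0.093 and *Mapt* −0.013.

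Ratios against the Il33 group reversed in PS19 for *Gm13187* (−1.04 without putative doublets, −0.99 without Enpp6-led nuclei), *Pde9a* (−1.04 and −0.66) and *B130024G19Rik* (0.20 without nuclei with neuron genes). In PZKO *B130024G19Rik* was 2.28 with the gate of 40, 1.10 without nuclei with neuron genes and 1.94 thinned, and *Mbp* was −0.00011 without nuclei with neuron genes and −0.076 with the ambient profile subtracted. The cause of these reversals was not tested.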
